A study of Homo sapiens with 2 samples.

Results

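The ciliary transition zone and basal body genes are 33 genes for the gate and the anchor of the cilium, and their messenger RNA was followed in K562 cells, a human erythroleukemia line, with and without a miR-34a mimic. The genes were chosen by name from what is known of their function, and the choice was made with log2 ratios of these same arrays in view, DPCD being known as a large increase. All values below are therefore descriptions and none is a test. Of the 33 genes, 32 had a probe set of their own on the Affymetrix array, and 28 passed the filter on signal, among 12774 genes that passed it in all. CEP83 had no probe set under its symbol in the platform annotation and is not analysed here. The 4 genes under the filter were TMEM17, RPGRIP1L, RFX3 and FOXJ1.

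The series has 2 arrays. Cells of the control culture had received 3 µg of a control mimic by nucleofection, a transfer of nucleic acid by an electric pulse, and cells of the other culture 3 µg of a miR-34a mimic. Total RNA was taken after 24 hours in both. Each group is 1 culture and 1 array of an established line, so no value has a replicate and no spread between cultures is known. Fewer cells that make an RNA and less RNA per cell cannot be told apart in such bulk samples.

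A cilium grows from a basal body, a mother centriole docked at the membrane. Its distal appendages anchor it, a cap of CCP110 and CEP97 holds the centriole closed until growth starts, and the transition zone above it is a gate of Y-shaped links that decides which proteins enter. RFX factors and FOXJ1 switch on the genes for these parts. Mutations of transition zone genes cause Meckel, Joubert and nephronophthisis syndromes. In tissues with many motile cilia, the microRNAs of the miR-34 and miR-449 families promote cilium formation, and repression of CCP110 is the best known part of that action.

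Mature sequences of some members of the family are shown, the first of which the mimic carries. The seed, bases 2 to 8, is the part that pairs with target RNAs. Sequences are from RefSeq (GRCh38.p14), written 5′ to 3′ with the seed in capitals. Among the sequences shown, miR-449a and miR-449b-5p share the seed of miR-34a-5p base for base. By contrast, miR-34b-5p and miR-449c-5p have another seed at these positions. A further member, miR-34c-5p, is not shown, and its seed was not compared.
miR-34a-5p: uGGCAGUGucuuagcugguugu
miR-449a: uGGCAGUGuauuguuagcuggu
miR-449b-5p: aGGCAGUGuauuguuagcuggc
miR-34b-5p: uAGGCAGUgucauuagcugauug
miR-449c-5p: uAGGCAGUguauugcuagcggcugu

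Signal is given as deposited, in arbitrary units on a linear scale, for the brightest probe set of a gene, meaning the expressed one with the highest mean log2 level over both arrays. A log2 ratio is the difference in log2(signal + 14.9), miR-34a minus control, centred on the median of all expressed genes, so a difference between dim signals is understated. Expressed means a mean log2 level at or above the median of all probe sets other than controls, about 39.0 in signal. A signal at or below 75.4, the highest among 27 bacterial control probe sets kept for their low signal, is called within background. No change is read where both arrays are within it. This limit depends on which bacterial probe sets were kept. Their median was 11.5 in the control and 10.4 with miR-34a, and their highest signal with miR-34a was 65.2. The arrays had median signals of 39.5 and 40.1. The 3′ to 5′ signal ratio of GAPDH, which grows as RNA degrades, was 3.07 in the control and 3.53 with miR-34a. The same ratio of ACTB was 4.30 and 4.54. Both were thus somewhat higher with miR-34a, and the part of RNA degradation in the results was not tested. The mimic's known targets CDK6 and CDK4, both cell cycle kinases, had log2 ratios of -1.64 and -1.59 on the brightest probe set, those of the 5 expressed probe sets of CDK6 running from -1.70 to -0.087, whereas the erythroid factor genes GATA1 and KLF1 read above 1000 on both arrays, at ratios of 0.22 and 0.096. Of 23 genes for the motile axoneme with a probe set, the marks of a ciliated epithelial cell, 5 read above background on both arrays (SPAG6, ROPN1L, ODAD2, CAPS and DNAI1), and the tektin gene TEKT1 was listed at the table's floor of 1 for the control and at 1.4 for miR-34a. Over the 23 genes the brightest probe sets summed to a signal of 1238 in the control and 1371 with miR-34a. These sums include genes within background, so no change is read from them. Both cultures were K562 cells, and the part of ciliated epithelial cells in the results was not tested.

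Most of the genes kept nearly the same signal, and DPCD was far higher with miR-34a. Of the 28 expressed genes, 24 lay within 1.5-fold, 85.7% against 93.7% of all expressed genes, and by the sign of the ratio 21 were higher and 7 lower. Of those 7, TMEM216, TMEM67 and CEP41 were within background on both arrays and give no direction. Counts by sign, here and for each list below, include such genes. Their median log2 ratio was 0.17, against 0 for all expressed genes, of which 50% were higher. DPCD alone was at least 2-fold higher, 1 of 28 genes, where 0.595% of all expressed genes were. None was at least 2-fold lower, where 0.548% of all expressed genes were. At 1.5-fold, ratios of 3 of 28 were past the size on the higher side (DPCD, IQCE and TCTN1) and 1 on the lower side (TMEM216, within background on both arrays), beside 3.28% and 3.01% of all expressed genes. With 4 times the pseudocount the ratios of IQCE, TCTN1 and TMEM216 were 0.58, 0.42 and -0.37, all within 1.5-fold, and DPCD stood at 1.22. Without DPCD the median over 27 genes was 0.16. Among the 21 genes whose brightest probe set was above background on both arrays, 17 were higher, 81.0%, against 48.6% of the 9639 such genes in all, and their median was 0.17 against -0.0068.

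**Figure D1:**
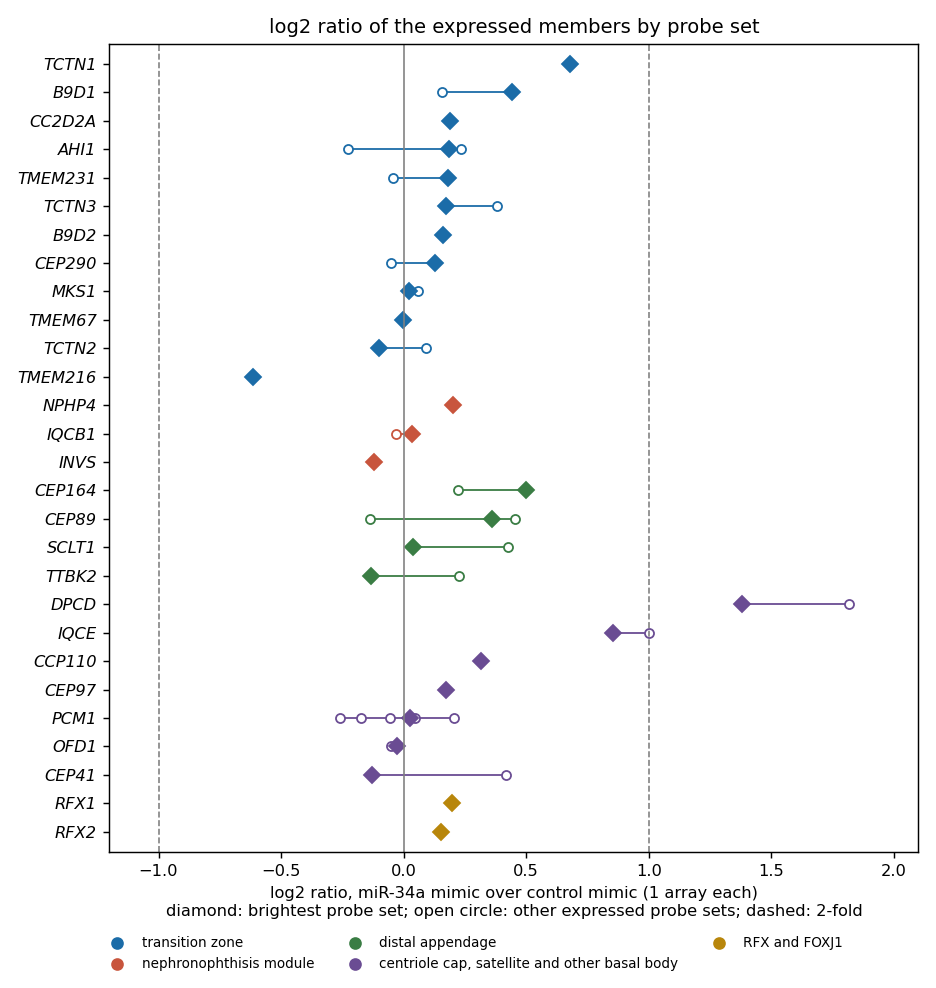
The log2 ratio of miR-34a over control mimic (x axis) is drawn for every expressed probe set of the 28 expressed genes (rows), coloured by group, with a diamond for the brightest probe set, open circles for the others, and dashed lines at 2-fold. DPCD lies past 2-fold on both of its probe sets, and most other diamonds lie between 0 and 0.5.

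DPCD, a gene named for its deletion in mice with primary ciliary dyskinesia, had the largest ratio of the group. Its brighter probe set read 207.3 in the control and 566.4 with miR-34a. The other probe set read 106.9 and 416.6. Both were above background on both arrays and both were higher with miR-34a. The log2 ratios were 1.38 and 1.82, with a mean of 1.60 ± 0.31 (SD over 2 probe sets of the same 2 arrays). The signal ratio of the brighter probe set was 2.73. On that probe set DPCD stood at rank 18 from the top among 12774 expressed genes, and 7 of the 3272 genes with a mean signal between 300 and 1000 had a higher ratio. The start of DPCD lies back to back with that of POLL, a DNA polymerase gene, in the RefSeq promoter table. The single probe set of POLL read 12.6 and 27.2, within background on both arrays, so no change is read from it. FBXW4, the next gene on the other side, went from 48.7 to 65.6, also within background.

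**Figure D2:**
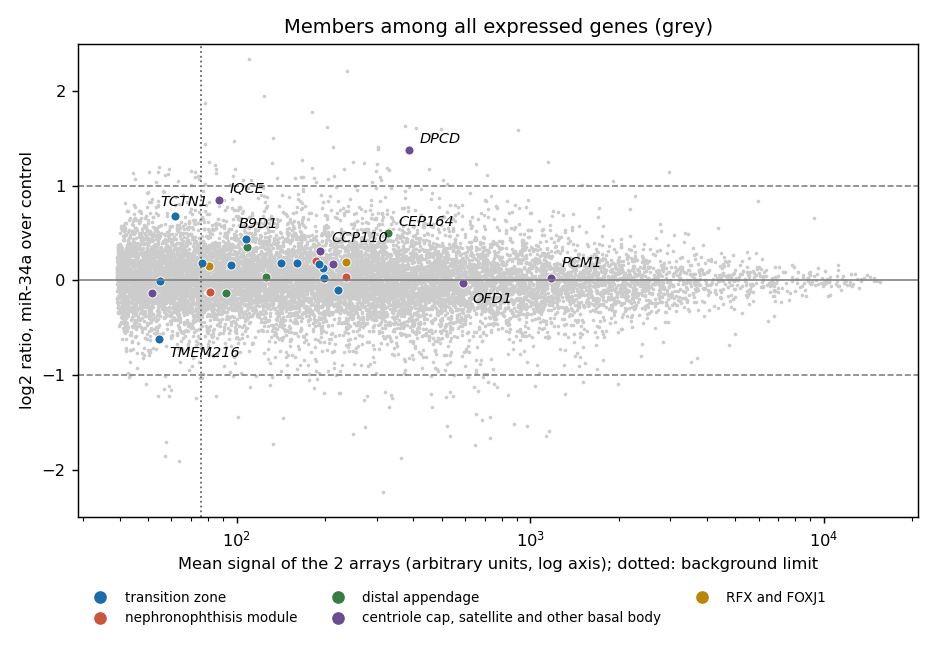
Each expressed gene is placed by the mean signal of its brightest probe set over the 2 arrays (log axis) and its log2 ratio, with the members coloured over all 12774 genes in grey, dashed lines at 2-fold and a dotted line at the background limit of 75.4. DPCD stands apart at a mean signal of 386.9, and PCM1, at 1173, lies at the centre line.

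IQCE, which encodes a protein at the base of the cilium that takes part in Hedgehog signalling, had log2 ratios of 0.86 and 1.0. Its probe sets read 57.3 and 30.4 in the control, both within background, and 116.6 and 76.4 with miR-34a, both above it, the second only just. Both were higher, and both started from a level that is only a bound. Against the background limit, IQCE was at least 1.55-fold higher on the brighter probe set. The expressed genes on either side of it had ratios of -0.19 (BRAT1) and 0.13 (TTYH3). CCP110, the cap protein that keeps cilia from growing, went from 169.8 to 216.2, a log2 ratio of 0.31. It was thus slightly higher and not lower on its one probe set above background, while a dim second probe set read 21.5 and 8.28 and gives no direction. Its partner CEP97 went from 199.4 to 228.1, a ratio of 0.17, on a probe set of the class that can cross-hybridise (_x_at).

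PCM1, the scaffold of the centriolar satellites, hardly differed on its brightest probe set, which went from 1160 to 1187. That probe set is of the class that can cross-hybridise (_x_at). The 6 expressed probe sets of PCM1 gave log2 ratios between -0.26 and 0.21, 3 of them higher and 3 lower. The lowest ratio came from its only probe set without a class letter (_at), which went from 82.7 to 67.1, into background. OFD1, a satellite and centriole protein that is mutated in oral-facial-digital syndrome, went from 595.7 to 588.0, a ratio of -0.027. CEP41, which is needed for glutamylation of ciliary tubulin, never left background on any of its 6 probe sets and gives no direction. Of these 7 cap, satellite and other basal body genes, 5 were higher on the brightest probe set. They include PCM1, which was mixed, with a mean ratio of -0.036 over its 6 probe sets. OFD1 was slightly lower and CEP41 gives no direction. The median was 0.17.

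Transition zone genes differed little between the arrays, and most were slightly higher. Of 13 listed, 12 were expressed and 9 were higher. TCTN2 was lower on its brightest probe set, of the class that can cross-hybridise (_x_at), and had a ratio of 0.090 on the other. The ratios of TMEM216 and TMEM67, also under 0, rest on signals within background. The median log2 ratio was 0.17. None was past 2-fold. The 8 genes above background on both arrays included 7 higher ones and had the same median, 0.17. With the mean over each gene's expressed probe sets in place of the brightest, the transition zone median was 0.067.

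The tectonics, secreted or membrane proteins of the gate, differed among themselves. TCTN1 went from 43.8, within background, to 79.6, just above it, a log2 ratio of 0.68 that amounts to at least 1.06-fold against the background limit. A dimmer probe set of TCTN1 read 38.2 and 37.9. TCTN3 went from 177.8 to 203.7 on one probe set and from 125.4 to 168.9 on the other, ratios of 0.17 and 0.38. TCTN2 went from 229.9 to 214.6, a ratio of -0.10, and its other probe set gave 0.090. TCTN3 was thus higher on both of its probe sets, TCTN2 was mixed, and TCTN1 rests on a dim start.

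The B9 domain proteins, B9D1, B9D2 and MKS1, form a complex of their own within the gate. B9D1 read 88.6 and 126.8, a log2 ratio of 0.44, while a second probe set, from 92.2 to 105.2, gave 0.16. B9D2 went from 89.4 to 102.5, a ratio of 0.16. MKS1, mutated in Meckel syndrome, went from 195.4 to 200.3 and from 189.9 to 199.4, ratios of 0.024 and 0.057. All 3 were therefore at or above their control signal, and only B9D1 exceeded 0.4.

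Of the membrane proteins of the gate, TMEM231 went from 149.1 to 172.4, a log2 ratio of 0.18, with -0.043 on a second probe set. TMEM216 had the lowest ratio of all the genes, -0.62, from 68.7 to 39.99. Neither signal exceeded background, so this ratio gives no direction. TMEM138, the gene beside TMEM216 in the RefSeq order and like it mutated in Joubert syndrome, went from 384.4 to 520.2, a ratio of 0.41. TMEM67 read at most 55.0 on any of its 7 probe sets, and TMEM17 read 8.73 and 16.8, so neither was detected above background. Of these 4 membrane proteins, TMEM231 alone was above background.

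CEP290, a large linker between membrane and microtubules, went from 186.4 to 206.5, a log2 ratio of 0.13, with -0.053 on a second probe set above background. AHI1, the gene of Joubert syndrome that encodes jouberin, had ratios of 0.19, -0.23 and 0.23 on its 3 expressed probe sets. Its brightest pair disagreed in direction, going from 130.8 to 151.9 and from 151.9 to 128.5. CC2D2A went from 69.9 to 82.5, from within to just above background, a ratio of 0.19. On their expressed probe sets none of the 3 differed by more than the 0.24 that probe sets of a gene typically spread (pooled SD over 5494 genes with 2 or more expressed probe sets).

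In the nephronophthisis module, which sits beside the Meckel complex and whose loss causes cystic kidney disease, ratios were close to 0. NPHP4 had 172.3 in the control and 201.6 with miR-34a, a log2 ratio of 0.20. IQCB1, which binds calmodulin, went from 232.4 to 239.8, a ratio of 0.034, and its other probe set gave -0.032. INVS, inversin, went from 84.9 to 77.4, a ratio of -0.12, both only a little above background. RPGRIP1L read at most 32.6 on either array and was under the filter. The median of the 3 expressed genes was 0.034. It was 0.00072 with each gene's expressed probe sets averaged, and 0.064 over all 4 genes without the filter.

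A distal appendage gene had the largest ratio after DPCD among the genes above background on both arrays. CEP164, the appendage protein that recruits the kinase TTBK2, went from 267.7 to 386.5, a log2 ratio of 0.50. A second probe set read 97.1 and 116.6, a ratio of 0.22. It was higher on both, and its ratio exceeded that of 95.6% of genes with a mean signal between 300 and 1000. CEP89 went from 92.7 to 123.9, a ratio of 0.36, with 0.45 and -0.14 on dimmer probe sets. SCLT1 went from 123.4 to 127.9, a ratio of 0.037, with 0.43 on a second expressed probe set within background on both arrays. TTBK2, which removes the CCP110 cap, went from 96.4 to 87.3, a ratio of -0.13, while a probe set within background gave 0.23. The median of the 4 genes was 0.20, with 3 higher and 1 lower.

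**Figure D3:**
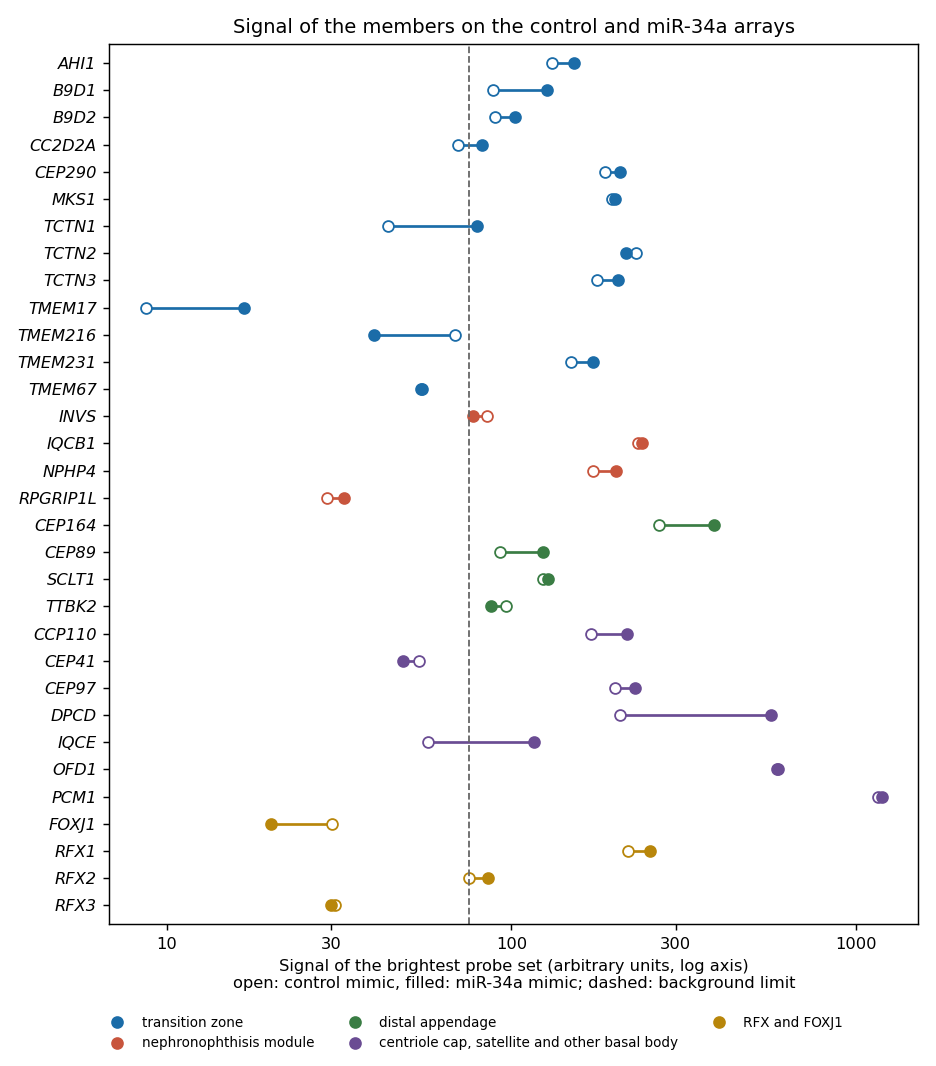
The signal of the brightest probe set of each of the 32 measured genes (rows, coloured by group) is drawn on a log axis, open for the control array and filled for the miR-34a array, with a dashed line at the background limit of 75.4. DPCD has the longest line to the right of that limit, and TMEM17, RPGRIP1L, FOXJ1 and RFX3 lie to the left of it on both arrays.

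Of the regulators, RFX1 was the one measured above background on both arrays. It went from 217.4 to 253.2, a log2 ratio of 0.20. RFX2 went from 75.1, just within background, to 85.8, a ratio of 0.15 or at least 1.14-fold against the limit. RFX3 read at most 30.9, and FOXJ1, the master factor of motile cilia, 30.2 and 20.1. Neither RFX3 nor FOXJ1 exceeded background, and no direction is given for them. The median of RFX1 and RFX2 was 0.18, and without the filter the median of all 4 was 0.057.

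Somewhat more probe sets of these genes were above background with miR-34a. Of their 97 probe sets, 35 were above it in the control and 41 with miR-34a. The 7 above it only with miR-34a belong to IQCE (2 of them), TCTN1, CC2D2A, AHI1, CEP89 and RFX2, and 1, of PCM1, was above it only in the control. Over all probe sets other than controls, 35.1% and 35.5% were above it, with 2.1% above only with miR-34a and 1.73% only with the control, against 7.22% and 1.03% of the 97. Probe sets of the same gene are not independent.

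Agreement between probe sets limits these sizes. Of the 17 genes with 2 or more expressed probe sets, 7 were higher on all of them, 1, OFD1, was lower on both, and 9 were mixed. All expressed probe sets moved the same way in 54.0% of the 5494 genes with several, and in 47.1% of these 17. The pooled SD within a gene was 0.21 here and 0.24 over all genes, which is larger than most of the ratios above. In the signal band from 75.4 to 150, which holds 10 of the 28 genes, 95% of all expressed genes lay between -0.59 and 0.68, and from 150 to 300, with another 10, between -0.65 and 0.70. DPCD and IQCE lay beyond the limits of their bands, as did TCTN1 and TMEM216 in the band whose mean signal is within background.

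Further genes of the same structures stood closer to 0. Of 27 other transition zone and Joubert syndrome genes, 19 were expressed, 11 were higher, and the median log2 ratio was 0.091, with none past 2-fold. TMEM107, a membrane protein of the gate, was the highest, from 79.4 to 162.3, a ratio of 0.90 with an SD of 0.24 over 3 probe sets that were all higher. KATNIP followed at 0.58, within background on both arrays. TOGARAM1 and PDE6D were the lowest at -0.58 and -0.50, the first from 102.8 into background and the second within it on both arrays. Of 44 other centriole, appendage and satellite genes, 41 were expressed, 27 were higher, and the median was 0.074, with none past 2-fold. CETN2, a centrin of the centriole lumen, was the highest, from 354.8 to 621.1, a ratio of 0.77 on its single probe set. CEP63 had 0.67 within background, and TBC1D31 and POC1A were the lowest at -0.47 and -0.37. The differences between these medians and that of the 28 genes were not tested.

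The program of multiciliated cells showed no shift upward. Of 14 listed regulators, 8 were expressed, 4 higher and 4 lower, with a median of -0.070. MYB, which also acts in cell cycle control and is itself a known miR-34a target, read 3023 in the control and 1748 with miR-34a, a log2 ratio of -0.79. FOXN4 stood at -0.22. CCNO had 0.45, from 65.2 within background to 95.2, and TP73 had 0.12 within background. GMNC, the upstream switch of the program, read 32.5 and 24.2. Among axoneme genes 6 of 11 expressed were higher, with a median of 0.049. DNAH5 and SPAG6 were the highest at 0.46 and 0.22, and TEKT2 and DNAH9 the lowest at -0.74 and -0.17, all but SPAG6 within background on both arrays. Besides CCP110, 7 genes reported as miR-34 targets in cilium formation or used as a check of the mimic were expressed. CDK6, CDK4, SIRT1, DLL1 and NOTCH1 were lower, from -1.64 to -0.56, RRAS had -0.77 within background on both arrays, and the receptor gene MET stood at 0.11, with its other expressed probe set at -0.38. CCP110 was the highest of these 8 genes.

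Some of the promoters hold a sequence feature that the choice of genes did not use. RFX factors bind the X-box, an inverted repeat whose arms are close to GTTGCC. RefSeq promoter windows of 300 bases, 250 before and 50 after an annotated start, were matched by symbol for 27 of the 33 genes. For 4 of the 27, CEP164, CEP41, OFD1 and RFX1, the table's windows begin inside the gene, downstream of the gene's own start in RefSeq, and all 4 hold an arm. The arm GTTGCC, searched on both strands, was in the windows of 14 of 27, 51.9%, against 14.6% of the 27305 genes in the table and 16.97% of the expressed ones. The median GC content of the windows was 63% for these genes, 58.3% for all and 64.2% for the expressed ones. An arm on each strand was in 5 of 27, 18.5%, against 0.674% of all and 0.730% of the expressed ones. The forkhead site GTAAACA, searched on both strands, was in 1 of 27, 3.70%, against 4.19% and 3.79%. An inverted pair of arms has 0 to 3 bases between them and at most 1 difference in each arm. This search was added after the values were seen. The pair was in 9 of 27, 33.3%, against 5.56% of all and 6.53% of the expressed ones. An exact pair was in 3 of 27, 11.1%, against 0.201% and 0.234%. An exact pair contains the arm, so these counts overlap. Over windows that begin before the gene's own start, a restriction added after the values were seen, the arm was in 10 of 23 genes, 43.5%, against 12.3% of all. In those windows the inverted pair was in 8 of 23, 34.8%, against 4.63%, and the exact pair in 2 of 23, 8.70%, against 0.147%. The 9 pairs lay in 7 of 11 transition zone genes, 0 of 4 nephronophthisis genes, 0 of 5 distal appendage genes, 2 of 5 cap, satellite and other basal body genes and 0 of 2 RFX genes. A match is not a measured binding site.

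The stretches around the pairs are shown for the genes with an exact pair, TCTN1, TCTN3 and CEP41, and for DPCD, with the stretch around the single arm of CCP110 for comparison. Each is from RefSeq GRCh38.p14, 5′ to 3′ on the strand of the gene, with the arms in capitals. The pair of TCTN1 starts at the annotated start itself (chr12:110614112-110614158, plus strand). That of TCTN3 starts at position -215 from it (chr10:95694113-95694159, minus strand) and that of CEP41, in a window inside the gene, at -160 (chr7:130441145-130441193, minus strand). DPCD has a pair with 1 difference in all, starting at position -27 (chr10:101588277-101588324, plus strand), and CCP110 has its arm in chr16:19523906-19523945 (plus strand).
TCTN1: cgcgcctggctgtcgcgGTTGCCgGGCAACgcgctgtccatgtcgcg
TCTN3: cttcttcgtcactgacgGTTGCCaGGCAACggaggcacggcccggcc
CEP41: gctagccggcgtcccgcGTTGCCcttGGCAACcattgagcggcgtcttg
DPCD: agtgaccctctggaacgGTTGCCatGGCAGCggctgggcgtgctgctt
CCP110: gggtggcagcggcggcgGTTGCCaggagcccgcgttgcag

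**Figure D4:**
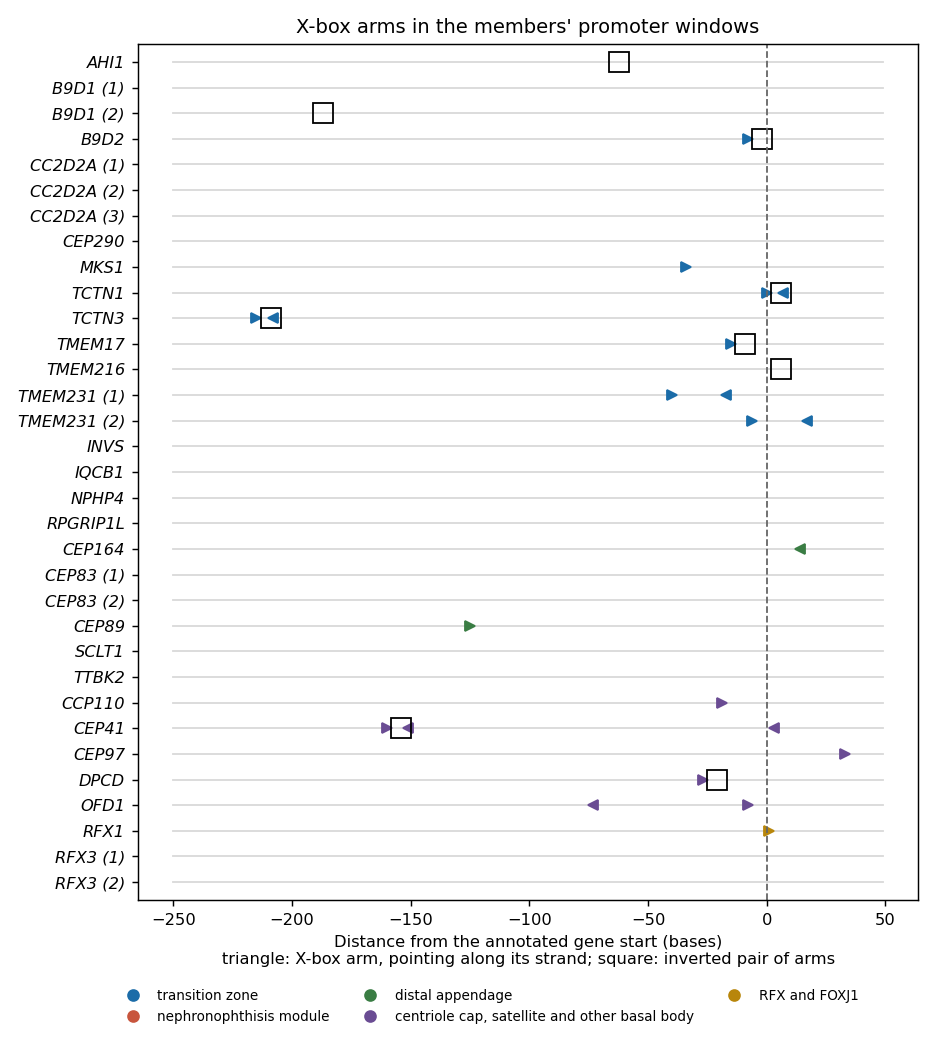
Each row is a promoter window of a member, numbered where a gene has several, drawn from 250 bases before to 49 after the annotated start (x axis, bases), with triangles for X-box arms pointing along their strand and squares for inverted pairs of arms. Pairs lie in windows of 9 genes, among them TCTN1, TCTN3, CEP41 and DPCD, and the nephronophthisis genes have none.

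Ratios were set beside the arm, and the differences were not tested. The 13 expressed genes with an arm had a median log2 ratio of 0.18 and 11 of them were higher, and the 10 without it had a median of 0.083 and 7 higher. Over all expressed genes with a window the medians were 0.017 for 1743 genes with the arm and -0.0068 for 8530 without it. The shares that were higher were 84.6% and 70% here, against 53.4% and 48.7% over all expressed genes with a window. For the inverted pair, the medians were 0.18 for 8 genes with it and 0.17 for 15 without, and 0.019 and -0.0047 over all expressed genes. With the pair 6 of 8 genes were higher, 75%, and without it 12 of 15, 80%. Over all expressed genes with a window these shares were 55.1% and 49.1%. TCTN1, TCTN3 and CEP41, whose pairs are exact, had ratios of 0.68, 0.17 and -0.13. CEP41 was within background on both arrays and gives no direction, and the ratio of TCTN1 starts from a signal within background. No relation between exact pairs and ratios is read from these 3 genes.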

How the data were processed

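The authors deposited 1 table of intensity values, linear and in arbitrary units, for 54675 probe sets on 2 arrays. Software, background correction and scaling remain not given in the sources used here. The lowest value was 1, held by 3.58% and 3.54% of probe sets, and dim values are the least certain. From the deposited intensity, log2(value + 14.9) was taken, 14.9 being the 25th percentile of all values, and ratios were centred by subtracting 0.0090. Only probe sets with 1 symbol in the platform annotation were used (41091), which leaves out 1 shared by INVS and WSB1. With 1 array per group no test was run, and genes were counted at 2-fold and 1.5-fold.

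The members and lists were chosen with earlier results of these data known. All 33 members are named, with the 2 highest and 2 lowest of each other list (lists for the transition zone, centriole, multiciliated program, axoneme, miR-34 targets and K562 markers). Of the last, EPOR and HBZ were highest, at 0.50 and 0.84, and TFRC and KLF1 lowest, at -0.12 and 0.096, with a median of 0.19 over 7 expressed genes, 6 of them higher. List names not used by the annotation were matched through RefSeq synonyms. The calculation was tested on simulated data with changes of at least 2-fold, put into brighter probe sets only. Smaller changes, and changes of dim signals, were not simulated. Python 3.11.15, NumPy 2.4.6, pandas 2.3.3, statsmodels 0.14.6 and matplotlib 3.10.9 were used.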

Additional observations from a re-analysis of the deposited data

How the results depend on the processing

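DPCD was past 2-fold, and no member was 2-fold lower, under every alternative of pseudocount, filter, centring, normalization and probe set choice that was run, with DPCD between 1.22 and 1.60. The count of members past the threshold was 3 higher and 1 lower at 1.5-fold, and 0 higher without DPCD, a setting chosen after the data were seen. The median of all expressed members moved to 0.12 with 4 times the pseudocount, and that of the transition zone to 0.067 with probe sets averaged. Without the filter the RFX and FOXJ1 median was 0.057 in place of 0.18 and the nephronophthisis median 0.064 in place of 0.034, the latter 0.00072 with probe sets averaged. With 4 times the pseudocount, IQCE, TCTN1 and TMEM216 no longer passed 1.5-fold. Of 28 members, 20 were higher and 3 lower (INVS, OFD1 and TMEM216) under every setting that gave a value. Of those lower, TMEM216 was within background on both arrays and gives no direction. Among the 20, AHI1, CEP89, CEP290, IQCB1 and TMEM231 were each lower on another expressed probe set. All settings reuse the same arrays, and most use the same brightest probe set, so a kept sign is not a replicate. The share of all expressed genes that kept their sign was not counted, so these counts have no comparison. CEP41, PCM1, TCTN2, TMEM67 and TTBK2 changed sign in at least 1 setting. Over all genes the counts past 2-fold, 76 higher and 70 lower, became 28 and 41 with 4 times the pseudocount, 215 and 206 without a filter, and 41 and 48 among genes above background on both arrays, a filter added after the data were seen. No paired analysis was possible because each group has 1 array. The number of arrays and the signal over background limit the precision.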
